A study of Mus musculus with 77 samples.

Results

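Mouse pancreatic ductal organoids that expressed 6S-A Ngn3 were compared at 8 days and at 2 days of transgene induction, to ask which of the early transcriptional responses faded, which stayed and which appeared late. The comparison was defined by the labels alone, and it took all 24 libraries of 6S-A Ngn3 among the 77 libraries of the series, 18 from 2 days and 6 from 8 days. The libraries formed 3 biological replicates per time point. Each library was made from a pool of 50 sorted cells, and repeat pools of 1 replicate were summed before testing.

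All organoids were three-dimensional cultures of adult ductal cells from C57BL/6 mice, infected with lentiviral vectors for inducible expression. 6S-A Ngn3 is a form of Neurogenin 3 in which the serines of its serine-proline sites are replaced by alanine, so that cyclin-dependent kinases cannot phosphorylate them, and WT Ngn3 is the unmutated form. Both were HA-tagged and linked to GFP through a 2A peptide, and GFP+ cells were sorted. At 2 days the control was GFP only, from organoids infected with a vector without Ngn3. At 8 days the control was no-color cells, which came from the same 6S-A Ngn3 organoids but lacked the reporter, so the controls of the time points were of different kinds. The cultures were at passage 2 except replicate 3 of every 8-day group, which was at passage 5. The labels do not say which replicates came from separate cultures or animals, so p-values measure only the spread between these samples.

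Neurogenin 3 is a basic helix-loop-helix transcription factor that commits progenitors of the pancreatic duct epithelium to the endocrine lineage. It binds E-boxes as a dimer and switches on a cascade of further factors, among them NeuroD1, Insm1, Rfx6 and Isl1. In the embryo its expression is transient, and cells that have passed through it go on to make one of the islet hormones.

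At 2 days each replicate held between 17757303 and 20562288 reads on genes, from 300 cells. At 8 days the replicates held 15162134, 8479113 and 6827457 reads from 150, 100 and 50 cells, so rare transcripts were measured less precisely than at 2 days. Among the summed cell type lists, duct markers stood highest at both times. The summed level of 21 ductal keratins and surface markers lay between 17400 and 18840 CPM (counts per 1000000 reads on genes, with library sizes scaled by the trimmed mean of M-values, TMM) at 2 days and between 19090 and 39440 at 8 days. It was 31730 to 36270 CPM in GFP only and 59040 to 60920 CPM in the no-color cells. The 10 hormone genes measured summed to 472.4 to 900.5 CPM at 2 days and 50.37 to 3228 CPM at 8 days. The summed level of 9 acinar markers did not exceed 12.28 CPM at 8 days, that of 7 mesenchymal markers 4.11 CPM and that of 6 endothelial markers 4.3 CPM. Of the immune markers, Cd14 carried the sum, with 68.9 to 99.8 CPM at 2 days and 126 to 292 CPM at 8 days. In pooled cells, fewer cells of a type and less RNA per cell cannot be told apart.

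Between 2 and 8 days 58 genes rose (0.233% of 24945 tested) and 50 fell (0.2%) at an adjusted p under 0.05 by the quasi-likelihood test of edgeR with Benjamini-Hochberg adjustment. Gal, Lzts1 and Neurog3 itself were among the genes that fell, and Chil1, Gstt1 and Gstm1, all below 5 CPM at 2 days, were among those that rose. The median log2 change over all genes tested was -0.12, with 55.7% of them below 0 and 43.1% above 0, and 4.82% were higher and 7.04% lower at an unadjusted p under 0.05. Whether the libraries of the days shared a sequencing run is not given in the sources used here, so the day and a run cannot be told apart in any value between the days. The counts rested on every 2-day library: without replicate 1 of 2 days only Mtch1 passed, without replicate 2 there were 26 calls, without replicate 3 there were 12, and without replicate 3 of 8 days there were 67. Fitted on the 6 replicates of 6S-A Ngn3 alone, only Neurog3 and Gal passed. No gene among the 108 changed sign in any of these fits. In control cells, no-color at 8 days against GFP only at 2 days, 53 genes were higher (0.212%) and 99 lower (0.397%). These control counts ranged from 0 to 90 and from 9 to 140 as single replicates were left out, and were lowest without replicate 1 of GFP only. Of the 58 genes that rose with 6S-A Ngn3, 9 (15.5% of these and 17% of the control's 53) were also higher in the controls, and of the 50 that fell, 15 (30% and 15.2% of the control's 99) were also lower there.

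Neurog3 was measured first, since it is the induced gene. It stood at 198, 117 and 101 CPM in the 3 replicates of 2 days and at 9.85, 12.8 and 15.4 CPM in those of 8 days. All replicates of 8 days were far below all of 2 days, yet above the no-color cells of the same organoids, with 0.367, 0.989 and 0 CPM, and the GFP-only cells, with at most 0.0732 CPM. The log2 change was -3.46 ± 0.582 (SE, n = 3 against 3, adjusted p = 0.01, edgeR), 11 times higher at 2 days. The call was lost without replicate 1 of 2 days (adjusted p = 0.0702). Reads were counted on the Neurog3 gene at chromosome 10, 62133090 to 62134763, plus strand (GRCm38), and come from the transgene and the endogenous gene together, and the gene overlaps Fam241b on the opposite strand. With WT Ngn3 the log2 change was -2.61 (adjusted p = 0.0758, edgeR), and the difference between 6S-A and WT Ngn3 in this change did not pass for any gene. That test of the difference (edgeR) gave 0 calls and 750 genes at an unadjusted p under 0.05, with 4 calls by DESeq2 and 0 by limma voom. The WT Ngn3 replicates of 8 days held only 9762561, 3034680 and 4966242 reads from 100, 50 and 50 cells. A lack of calls therefore does not show equal changes.

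**Figure D1:**
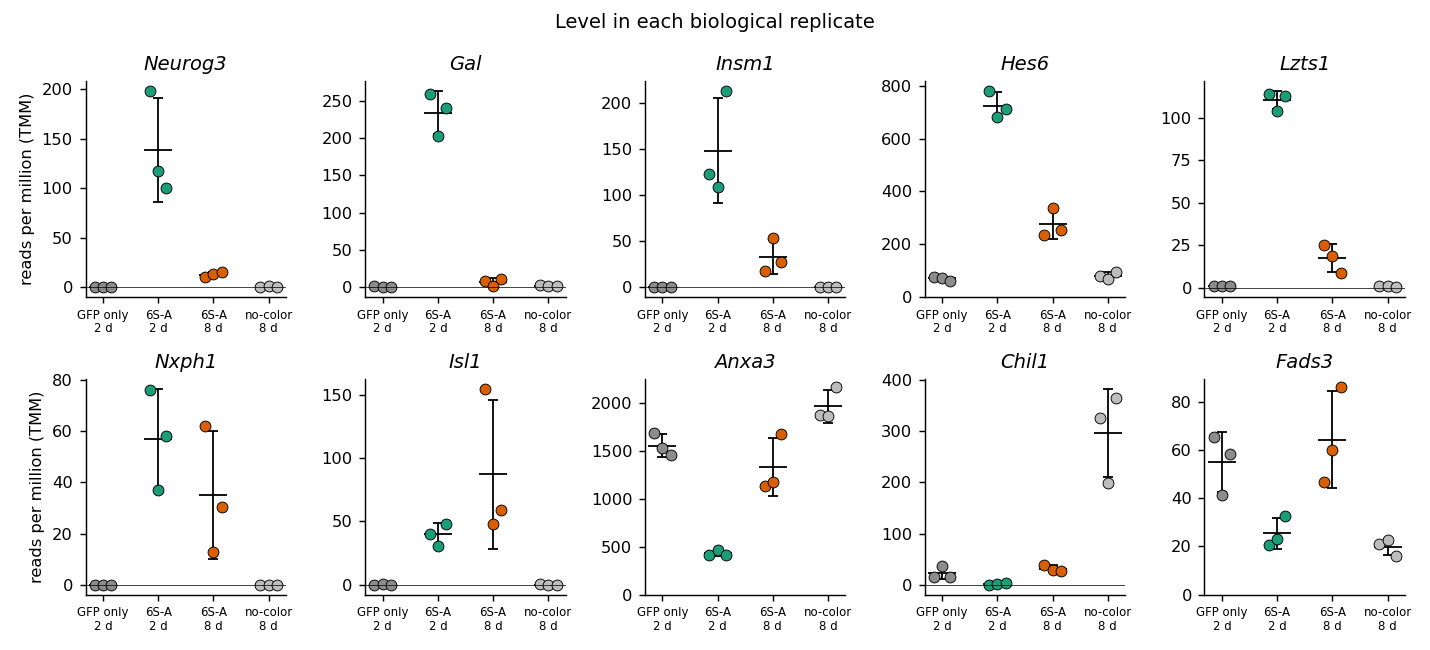
Level of 10 genes in each biological replicate (y axis, CPM after TMM scaling, linear, each panel with its own scale) in GFP only and 6S-A Ngn3 at 2 days and in 6S-A Ngn3 and no-color cells at 8 days. Points are replicates, the line is the mean and the bar 1 SD (n = 3): Neurog3, Gal, Insm1, Hes6 and Lzts1 were high at 2 days and lower at 8 days, Nxph1 and Isl1 overlapped between the days, Anxa3 and Chil1 were low at 2 days, and Fads3 was high in 6S-A Ngn3 of 8 days and in GFP only.

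The early response was taken as 6S-A Ngn3 against GFP only at 2 days, where 565 genes (2.26% of those tested) were raised and 295 (1.18%) lowered by at least 1 on the log2 scale. The late response was taken as 6S-A Ngn3 against its no-color cells at 8 days, where 361 genes (1.45%) were raised and 172 (0.69%) lowered by the same rule. On the adjusted p alone the counts were 572 (2.29%) and 305 (1.22%) early and 366 (1.47%) and 176 (0.706%) late. They fell to between 289 and 301 early rises without any 1 replicate of GFP only, to 128 early falls without replicate 1 of 6S-A Ngn3 at 2 days, to 183 late rises without replicate 3 of the no-color cells and to 90 late falls without their replicate 1. With the replicate number as a block within each day, 580 genes were lowered early, and 639 were raised and 485 lowered late. An early response was called faded where the direct comparison of the days also turned it back, and kept where the late response passed in the same direction and the direct comparison did not. Since the 2-day libraries of 6S-A Ngn3 enter both calls, the classes are a description and carry no test. They rest on the calls without a block and were not counted with the block within each day. Of the 565 genes raised early, 26 (4.602%) faded, 238 (42.124%) were kept and 301 met neither rule. Of the 295 lowered early, 42 (14.237%) rebounded, which means that they rose between the days, 77 were kept and 176 met neither rule. Neither name means a level equal to the control: 11 of the 26 faded genes were still raised in the late response, and 13 of the 42 rebounded genes still lowered. Without replicate 1 of 2 days the faded class held 1 gene (Mtch1) and the rebounded class 0, without replicate 2 they held 8 and 12, and without replicate 3 they held 4 and 6. Without replicate 3 of 8 days 7 faded, and the rebounded class held 27 and 26 genes without replicates 1 and 3 of GFP only. The kept class held 157 raised and 51 lowered genes without replicate 2 of GFP only, 158 and 49 without replicate 1 of the no-color cells, and 142 raised genes without their replicate 3.

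**Figure D2:**
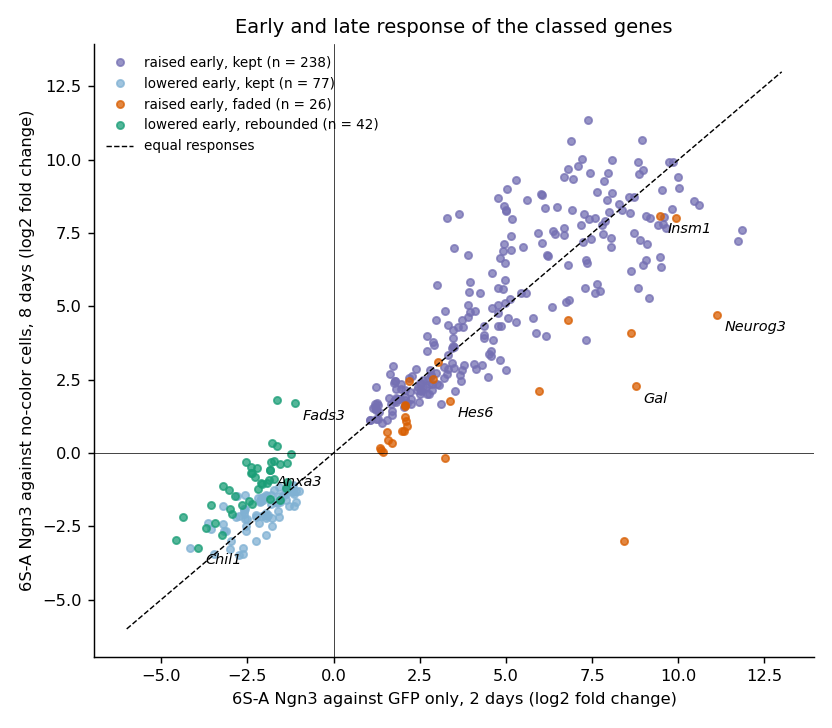
Early response (x axis, 6S-A Ngn3 against GFP only at 2 days) and late response (y axis, 6S-A Ngn3 against no-color cells at 8 days), both as fitted log2 fold changes, 1 point per gene of the 4 classes, with the line of equal responses dashed. Most faded genes, such as Neurog3, Gal and Hes6, lie below the line, and most rebounded genes, such as Anxa3 and Chil1, lie above it. Fitted values of genes with no read in a control depend on the prior count, as does the low faded point, Bhlhe22, which had no read with 6S-A Ngn3 at 8 days.

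Among the faded genes of at least 10 CPM, Gal, which encodes the neuropeptide galanin, had the largest fall. It was at 260, 203 and 241 CPM at 2 days and at 8.52, 1.99 and 10.8 CPM at 8 days, with 2.08, 1.17 and 0.983 CPM in the no-color cells. The days did not overlap, the log2 change was -5.05 ± 0.773 (adjusted p = 0.00855, edgeR), and the level was 33.1 times higher at 2 days. Lzts1, a leucine zipper protein with a role in the delamination of neural progenitors, went from 114, 104 and 113 CPM to 25.4, 18.5 and 8.91 CPM (-2.64 ± 0.441, adjusted p = 0.00908). Mtch1, a mitochondrial carrier homolog, had the smallest adjusted p of the genes named here. It went from 594, 508 and 494 CPM to 58.9, 132 and 105 CPM (-2.43 ± 0.281, adjusted p = 0.000207). Mtch1 was also lower in the controls of 8 days than in those of 2 days (-1.45, adjusted p = 0.0106), as were Bhlhe41 and Gpc1, the 3 faded genes called lower there. Over the 26 faded genes the median log2 change was -1.84 with 6S-A Ngn3 and -0.50 in the controls. All 26 were also lower at 8 days with WT Ngn3, 13 of them past the threshold.

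Some of the proneural transcription factors that Ngn3 switches on fell between the days, and whether they differed from those that did not pass was not tested. Insm1, a zinc finger repressor needed for endocrine differentiation, was at 123, 108 and 213 CPM at 2 days and at 17.9, 53.2 and 26.7 CPM at 8 days. All replicates of 8 days were below those of 2 days and above the no-color cells, which had at most 0.27 CPM, and Insm1 fell by 2.18 ± 0.459 on the log2 scale (adjusted p = 0.0285, edgeR). Hes6, an inhibitor of Hes1 that promotes differentiation, went from 783, 682 and 713 CPM to 233, 336 and 255 CPM (-1.40 ± 0.294, adjusted p = 0.0282) and stayed above the 66.4 to 95.5 CPM of the no-color cells. Neurod2, a neuronal relative of NeuroD1, went from 7.7, 7.08 and 11.4 CPM to 0.0605, 0.351 and 0 CPM (-5.94, adjusted p = 0.0215). Bhlhe22, another basic helix-loop-helix factor, was read at 1.51, 3.54 and 3.53 CPM at 2 days and in no library of 8 days, at least 29-fold lower against a limit of 3 reads over the group.

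Neurod1, the direct target that sustains endocrine differentiation, did not pass. It stood at 69.8, 52.3 and 98 CPM at 2 days and at 56.2, 25.7 and 16 CPM at 8 days, so the days overlapped (-1.16 ± 0.794, adjusted p = 0.576, edgeR). Atoh8 was at 12.6, 11.5 and 11.2 CPM and then at 4.47, 9.83 and 0.307 CPM (-1.26, adjusted p = 0.521). Rfx6, a winged-helix factor required for islet cell formation, was at 81.6, 58.6 and 82.3 CPM and then at 117, 53.9 and 35 CPM (-0.11, adjusted p = 0.984), and the sign of its change differed between fits. All of these, with Insm1, were in the late response at 8 days, where the no-color cells held at most 0.429 CPM of Neurod1, 0.0612 of Atoh8 and 0.367 of Rfx6. In the list of early proneural targets, 3 of 11 measured genes fell by edgeR (0.2% of all genes), 0 rose and 10 had a change below 0 (55.7% of all genes), with a median of -1.26 beside -0.12 over all genes. In the list 5 were lower and 0 higher at an unadjusted p under 0.05 (7.04% and 4.82% of all genes). DESeq2 called 3 lower and limma voom 5 (of 368 and 947 over all genes), and 0 were higher by either. In the controls the list's median was 0.04 as fitted, or -0.19 with genes without reads set to their limits.

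The 250 bases before the start of 5 of these genes are printed, since they show what the start regions of genes that faded (Neurog3, Gal), that did not pass between the days (Neurod1, Isl1) and that rebounded (Chil1) hold of the E-box, the recognition motif of Ngn3 and its relatives. They are RefSeq sequences of GRCm38.p6 in the direction of the gene, and capitals mark each E-box (CANNTG, a pattern that is its own reverse complement, so that both strands are covered). The windows are chr10:62132840-62133089 on the plus strand for Neurog3, chr19:3414545-3414794 on the minus strand for Gal, chr2:79456637-79456886 on the minus strand for Neurod1, chr13:116309689-116309938 on the minus strand for Isl1 and chr1:134181906-134182155 on the plus strand for Chil1.
Neurog3: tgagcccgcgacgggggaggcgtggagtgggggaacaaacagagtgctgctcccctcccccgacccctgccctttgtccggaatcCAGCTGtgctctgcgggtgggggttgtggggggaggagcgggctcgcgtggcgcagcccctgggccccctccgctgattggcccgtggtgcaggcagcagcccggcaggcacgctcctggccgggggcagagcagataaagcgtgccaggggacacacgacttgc
Gal: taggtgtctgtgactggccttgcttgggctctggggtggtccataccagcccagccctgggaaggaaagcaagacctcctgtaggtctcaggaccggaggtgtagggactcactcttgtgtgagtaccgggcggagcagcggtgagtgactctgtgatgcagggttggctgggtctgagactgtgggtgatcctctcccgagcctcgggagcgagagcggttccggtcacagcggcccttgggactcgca
Neurod1: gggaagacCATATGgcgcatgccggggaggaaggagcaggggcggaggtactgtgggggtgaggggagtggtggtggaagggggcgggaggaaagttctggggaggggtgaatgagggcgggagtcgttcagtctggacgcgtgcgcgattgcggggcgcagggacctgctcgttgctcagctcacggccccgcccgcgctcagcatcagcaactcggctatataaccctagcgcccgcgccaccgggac
Isl1: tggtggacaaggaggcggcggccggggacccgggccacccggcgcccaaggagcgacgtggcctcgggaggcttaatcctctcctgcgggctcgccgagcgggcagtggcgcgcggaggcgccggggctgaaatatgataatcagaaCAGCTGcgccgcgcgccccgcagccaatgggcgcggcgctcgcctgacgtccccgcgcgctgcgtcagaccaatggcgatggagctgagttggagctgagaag
Chil1: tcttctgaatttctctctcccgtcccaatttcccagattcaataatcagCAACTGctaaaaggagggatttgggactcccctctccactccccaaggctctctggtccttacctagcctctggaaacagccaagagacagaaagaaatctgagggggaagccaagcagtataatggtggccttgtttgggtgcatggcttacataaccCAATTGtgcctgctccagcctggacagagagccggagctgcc

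Of 13770 genes tested that had such a window, 63.9% held at least 1 E-box. The share was 14 of 19 among the faded genes (73.7%), 120 of 174 among the kept (69%), 15 of 31 among those that rebounded (48.4%) and 40 of 54 among those kept low (74.1%). The narrower motif CAGATG or its reverse complement CATCTG, which is contained in the E-box, was in 12.9% of all windows, in 1 of 19 faded (5.26%), 36 of 174 kept (20.7%), 3 of 31 rebounded (9.68%) and 9 of 54 kept low genes (16.7%). These are matches of letters in a short window. They were not tested, and distal sites were not searched. Insm1, Lzts1 and Anxa3 had no entry.

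Most genes raised in both the early and the late response were not called between the days. These 238 kept genes had a median log2 change of -0.84 from 2 to 8 days, so a lack of a call does not show an equal level. With WT Ngn3 the median was -0.93, and 207 of them were below 0. Isl1, a LIM-homeodomain factor of all islet cell types, was at 40.3, 30.9 and 48.1 CPM at 2 days and at 155, 47.8 and 59.1 CPM at 8 days, with 3 reads in the no-color cells. Its change was 1.14 ± 1.25 (adjusted p = 0.754, edgeR), and its replicate 1 of 8 days stood well above the others. Nxph1, a secreted ligand of neurexins, was at 76.1, 37.1 and 58 CPM and then at 62.1, 12.8 and 30.4 CPM, and the days overlapped. Rnase1, a pancreatic-type ribonuclease, was at 25.1, 14.1 and 19.4 CPM and then at 4.41, 15.1 and 46.7 CPM, with no read in the no-color cells. At 8 days it was at least 287-fold higher than the limit of 3 reads over that group.

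Ddc, the decarboxylase that makes dopamine and serotonin, was at 5.82, 3.8 and 2.72 CPM at 2 days and at 13.9, 5.5 and 21.2 CPM at 8 days. It had no read in either control and was at least 176-fold above the no-color limit at 8 days. Tff3, a trefoil peptide of mucous cells, was at 236, 187 and 244 CPM and then at 17.7, 73.8 and 42.7 CPM. The days of Tff3 did not overlap, but its change of -2.32 ± 0.605 did not pass (adjusted p = 0.12, edgeR), and it stayed above the no-color cells, which had at most 0.123 CPM. Spock2, Irs4 and Vwa5b2 were also kept. Spock2 spread from 0.307 to 32.9 CPM over the 8-day replicates and Irs4 from 5.22 to 75.9 CPM. Of 30 alternatives, the late response passed in 16 for Irs4, in 24 for Spock2 and in 29 for Vwa5b2. Vwa5b2 overlaps Alg3 on the opposite strand, and the counting strand is not given in the sources used here.

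Hormone and granule genes ranged widely between the replicates of 8 days, and apart from Gal none of those measured passed between the days by edgeR. Sst, the somatostatin of delta cells, was at 166, 435 and 85.9 CPM at 2 days and at 1586, 1501 and 2.46 CPM at 8 days. The replicate of passage 5 was below all of 2 days, the other two were above them, and the change did not pass (2.17 ± 1.93, adjusted p = 0.679, edgeR). Ghrl, the ghrelin of epsilon cells, was at 36.4, 159 and 571 CPM and then at 1553, 101 and 35.6 CPM, again without order between the days. Chgb, a granin of dense-core granules, was at 16, 46.7 and 327 CPM and then at 999, 774 and 1.84 CPM. Iapp, the islet amyloid polypeptide co-released with insulin, was at 0.733, 0.677 and 0.893 CPM and then at 29.9, 52.3 and 0.154 CPM (5.15 ± 1.5, adjusted p = 0.161), while its late response passed (adjusted p = 0.0422). Resp18, a neuroendocrine granule protein, went from 3.21, 1.46 and 2.59 CPM to 37.3, 14.4 and 20.3 CPM without overlap, but did not pass between the days (3.31 ± 1.39, adjusted p = 0.372).

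Of 10 hormone genes measured, 1 fell (Gal) and 0 rose by edgeR (0.2% and 0.233% of all genes). At an unadjusted p under 0.05, 1 was higher and 1 lower (4.82% and 7.04% of all genes). DESeq2 called 1 higher (Iapp) and 1 lower (Gal), of 328 and 368 over all genes. Limma voom called 2 higher (Iapp and Pyy) and 1 lower (Gal), of 519 and 947 over all genes. The genes Ins1, Ins2, Ppy, Gast, Nts and Vip did not reach the detection limit for testing. Gcg, the glucagon gene, had 2 reads in the pools of 2 days and 0 in those of 8 days. Of 16 granins and prohormone-processing genes 0 were called between the days by edgeR, or by DESeq2 or limma voom, with 3 higher and 1 lower at an unadjusted p under 0.05 (edgeR, 4.82% and 7.04% of all genes), while 8 were raised at 2 days and 9 at 8 days (2.29% and 1.47% of all genes). Of 23 islet lineage transcription factors 0 were called by edgeR, 1 was lower by DESeq2 and 1 higher by limma voom (of 368 and 519 over all genes). At an unadjusted p under 0.05, 2 were higher and 4 lower (edgeR, 4.82% and 7.04% of all genes). At 2 days 10 were raised and 2 lowered (2.29% and 1.22% of all genes), and at 8 days 8 were raised and 1 lowered (1.47% and 0.706%). Chga, at 259, 166 and 229 CPM at 2 days, was at 674, 24.3 and 11.1 CPM at 8 days. Cpe, the carboxypeptidase that trims prohormones, went from 603, 534 and 800 CPM to 264, 374 and 353 CPM (-0.97 ± 0.420, adjusted p = 0.375).

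**Figure D3:**
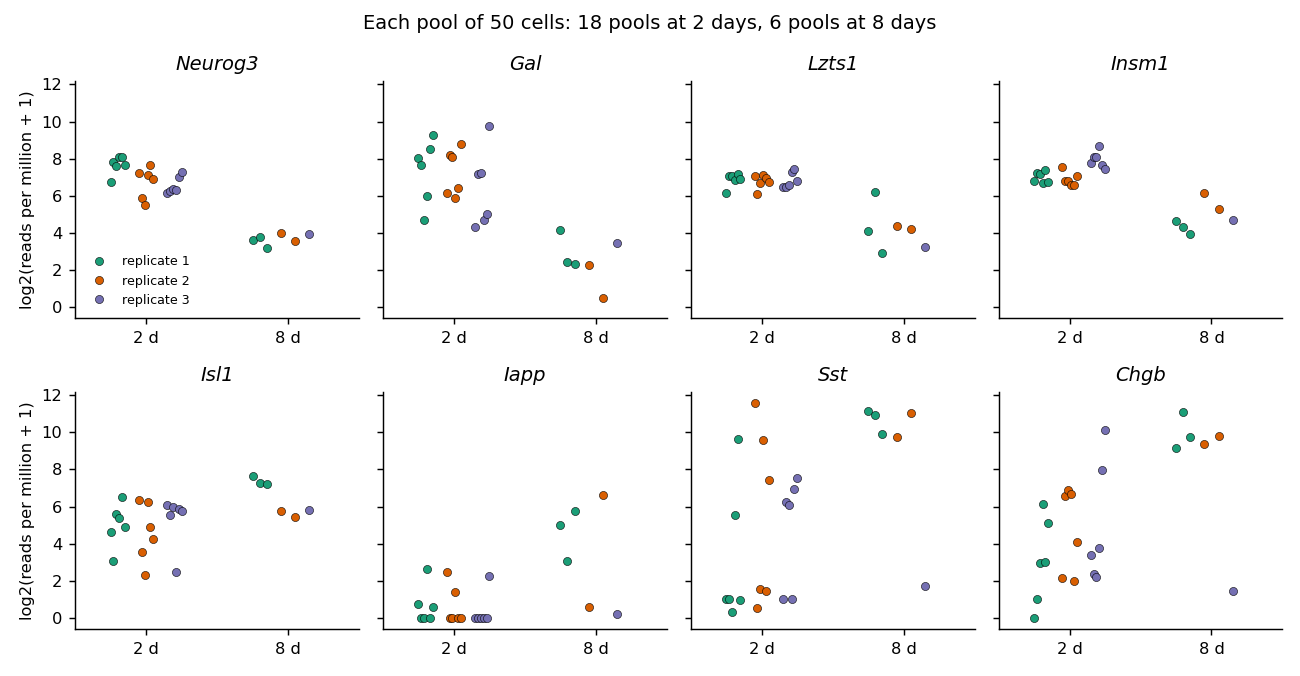
Each pool of 50 cells (points, 18 of 2 days and 6 of 8 days, coloured by biological replicate) for 8 genes, as log2(CPM + 1) on library totals. Neurog3, Insm1 and Gal of all 8-day pools lie below all 2-day pools, Lzts1 overlaps at the edge, and Sst, Chgb and Iapp spread over a wide range among pools, with the pool of replicate 3 at 8 days low in each.

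The single pools give the spread within a replicate, as CPM of the library total. Neurog3 was at 44.2 to 271 CPM with a median of 133 over the 18 pools of 2 days, and at 8.2 to 15.2 CPM with a median of 12.2 over the 6 pools of 8 days. Insm1 was at 93.4 to 406 CPM and then at 14.6 to 70.7 CPM, so neither gene overlapped between the days. Isl1 was at 3.98 to 89.2 CPM with a median of 42.9 and then at 43.0 to 196 CPM with a median of 103. Iapp had more than 3 reads in 4 of 18 pools of 2 days and in 4 of 6 pools of 8 days, and Pyy, which encodes peptide YY, in 1 of 18 and in 4 of 6, with at least 1 read in 6 and 2 of the 18 and in all 6. The 8-day pools were deeper, with a median of 4828898.5 reads against 2949341.5. Sst was at 0.248 to 3099 CPM with a median of 23.6 at 2 days and at 2.34 to 2228 CPM with a median of 1463 at 8 days, and pools of both days reached the same range.

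The 42 genes lowered early that rebounded by 8 days included the complement gene C3, annexins (Anxa2, Anxa3, Anxa4) and glutathione transferases (Gsta4, Gstm1, Gsto1, Gstt1). Other glutathione transferases (Gsta3, Gstt3, Mgst1) were kept low, with late responses of -2.60, -1.66 and -1.80, and no list of this family was fixed or tested. Chil1, a chitinase-like secreted protein, went from 0.504, 0.989 and 2.99 CPM to 39.5, 28.3 and 26.7 CPM (4.39 ± 0.680, adjusted p = 0.00866), and it was also higher in the control of 8 days (3.68, adjusted p = 0.00906). Chil1 stayed below the no-color cells at 8 days, with a late response of -3.23. Anxa3, a calcium-dependent membrane-binding protein, took the most reads of the group, with 412, 469 and 419 CPM at 2 days and 1139, 1182 and 1682 CPM at 8 days (1.62 ± 0.261, adjusted p = 0.00745). That was close to the 1456 to 1689 CPM of GFP only, and the Anxa3 control change was 0.34 (adjusted p = 0.575).

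The glutathione transferases Gstt1 and Gstm1 stood below 5 CPM in every replicate of 2 days. Gstt1 went from 3.07, 4.63 and 3.48 CPM to 19.5, 36 and 24 CPM (2.83 ± 0.414, adjusted p = 0.00603, edgeR), against 31.3 to 39.6 CPM in GFP only. Gstm1 went from 3.12, 4.11 and 3.48 CPM to 12.9, 19.4 and 29.9 CPM (2.53 ± 0.483, adjusted p = 0.0139), with 11 to 21.1 CPM in GFP only. Paralogs of this family can share reads, and how such reads were counted is not given in the sources used here. Aspa, which hydrolyses N-acetylaspartate, rose by 3.01 (adjusted p = 0.0217), Cldn8, a tight-junction claudin, by 3.01 (adjusted p = 0.0246), Stbd1, a glycogen-binding protein, by 2.55 (adjusted p = 0.01) and Dram1, a p53-induced regulator of autophagy, by 2.44 (adjusted p = 0.0134). Over the 42 rebounded genes the median log2 change was 2.05, and that of the controls 0.78. In the controls 5 were also called higher, among them Chil1, Aspa, C3 and Ctsc, and 1, Fads3, lower. All 42 were higher at 8 days with WT Ngn3, 6 of them past the threshold.

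The 77 genes kept low at both times had a median log2 change of 0.81 between the days. Of the 8 with the largest late response, Gjb1, which encodes the gap junction protein connexin 32, was at 0.642, 1.41 and 0.67 CPM at 2 days and at 6.83, 4.33 and 2.76 CPM at 8 days (2.38 ± 0.608, adjusted p = 0.0876, edgeR). Its no-color cells held 68.6, 27.1 and 37.6 CPM, and the late response of Gjb1 was -3.24 (adjusted p = 0.00286). Sftpd, a collectin of innate defence, was at 17.5, 58.5 and 21.4 CPM and then at 136, 133 and 41.6 CPM, against 1118, 716 and 659 CPM in the no-color cells (late response -3.0, adjusted p = 0.0059). The others were St8sia6, Prss35, Stra6, Kcnt2, Cyp21a1 and Tmem45b, with late responses between -3.48 and -2.99.

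A late rise was called for only 2 genes, Inhba and Fads3, both of which had been lowered at 2 days. Their early responses were -1.65 and -1.12 on the log2 scale, and both are also counted among the 42 rebounded genes. In the controls both were lower at 8 days than at 2 days, with a median change of -1.41. Inhba, the activin A subunit, was at 8.2, 8.9 and 13.5 CPM at 2 days and at 31.6, 25.5 and 75.6 CPM at 8 days (2.11 ± 0.466, adjusted p = 0.0416, edgeR), with 11.1 to 14.1 CPM in the no-color cells. Fads3, a fatty acid desaturase family member, was at 20.5, 22.9 and 32.7 CPM and then at 46.8, 60.1 and 86 CPM (1.34 ± 0.299, adjusted p = 0.044). Fads3 was the 1 gene whose late response differed from its early response by the test of that difference (0.00401% of genes tested), by 2.81 ± 0.424 on the log2 scale (adjusted p = 0.0197, edgeR). This held in 20 of 30 alternatives, with 11 genes called under a block within each day, and the call of Fads3 was lost without replicate 1 or 2 of 6S-A Ngn3 at 2 days, replicate 2 of 8 days, replicate 1 or 3 of GFP only, or any 1 replicate of the no-color cells. It was also lost with the first technical repeat only and without the libraries of passage 5. The controls of Fads3 moved the other way, from 41.3 to 65.4 CPM in GFP only to 16 to 22.6 CPM in the no-color cells. At 8 days 112 genes were in the late but not the early response. Their median change between the days was only 0.24, while the control of 8 days was lower than that of 2 days by a median of -1.48 with limits, or -1.70 as fitted, and by over 1 on the log2 scale in 79 of the 112. The class of late rises held 0 genes without any 1 of the replicates of 6S-A Ngn3 at 2 days, replicate 3 of 8 days, replicate 1 or 3 of GFP only, replicate 2 of the no-color cells, or replicate 2 or 3 of WT Ngn3 at 2 days.

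A late fall was called for Crip1, Kntc1 and Pclaf. Their early responses, of -0.99, -2.03 and -2.29 on the log2 scale, were below 0 but not called. The name of the class therefore does not mean that a fall was absent at 2 days. Crip1, a LIM protein of epithelial cells, went from 50.4, 38.6 and 29.8 CPM to 5.92, 5.5 and 3.69 CPM (-2.96 ± 0.517, adjusted p = 0.01, edgeR), against 17.3 to 23 CPM in the no-color cells. Kntc1, a kinetochore protein, was read at 4.45, 3.23 and 1.38 CPM at 2 days and in no library of 8 days, at least 30.7-fold lower. Pclaf, a PCNA-binding factor of dividing cells, went from 5.87, 9.58 and 2.72 CPM to 0.181, 1.29 and 0 CPM (-3.64, adjusted p = 0.0316). The controls of these 3 genes had changes below 0 that did not pass, of -1.93 for Crip1 (adjusted p = 0.0732), -1.80 for Kntc1 (adjusted p = 0.396) and -1.33 for Pclaf (adjusted p = 0.368, edgeR). This class held 0 genes without replicate 1 of 2 days or replicate 3 of 8 days, 1 without replicate 2 or 3 of 2 days, and 6 and 18 without replicates 1 and 2 of 8 days. The list of G2 and mitosis genes as a whole had 0 of 27 called by edgeR, DESeq2 or limma voom, and 1 lower at an unadjusted p under 0.05 (7.04% of all genes). Its median was -0.69, beside -0.68 in the controls. The median early response of this list was -1.78, with 0 called by edgeR. The S-phase list had 0 of 27 called by edgeR and DESeq2 and 1 lower by limma voom (of 947 over all genes). At an unadjusted p under 0.05, 1 was higher and 3 lower (edgeR, 4.82% and 7.04% of all genes).

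Of the lists examined, that of unfolded protein and amino acid stress held the most genes that rose. Of its 16 genes, 4 rose by edgeR (Slc7a11, Psat1, Asns and Phgdh, beside 0.233% of all genes), 15 were above 0 (43.1% of all genes) and the median was 0.94, beside -0.12 over all genes. In the list 9 were higher and 1 lower at an unadjusted p under 0.05 (4.82% and 7.04% of all genes). DESeq2 called 9 higher and 1 lower (of 328 and 368 over all genes), and limma voom 8 and 1 (of 519 and 947). Asns, asparagine synthetase, went from 76.6, 81.1 and 111 CPM to 289, 199 and 419 CPM (1.76 ± 0.339, adjusted p = 0.0153, edgeR). Psat1, a serine synthesis enzyme, went from 46.1, 50.7 and 56.1 CPM to 140, 140 and 347 CPM (2.03 ± 0.380, adjusted p = 0.0133). The controls moved with this list, with a median of 0.77 and 5 of 16 called higher, among them Asns (1.55, adjusted p = 0.0334) and Psat1 (1.64, adjusted p = 0.0419). Phgdh, which opens the serine pathway, rose from 18.7, 27.4 and 28.7 CPM to 77.1, 56.3 and 115 CPM, and its control change was 0.51 (adjusted p = 0.495). Slc7a3, an arginine transporter outside the list, rose by 3.45 ± 0.628 (adjusted p = 0.012), from 4.67, 3.96 and 7.19 CPM to 31.7, 21.1 and 121 CPM. The part of the culture time in these changes was not tested.

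Of 12 YAP targets, 1 rose by edgeR (0.233% of all genes), with 2 higher and 0 lower at an unadjusted p under 0.05 (4.82% and 7.04% of all genes). DESeq2 called 1 higher and limma voom 2 (of 328 and 519 over all genes). The edgeR call was F3, the tissue factor of coagulation, which went from 19, 23.8 and 29.3 CPM to 83.1, 63.1 and 85.9 CPM (1.69 ± 0.317, adjusted p = 0.0133, edgeR). The Notch ligands and effectors had 0 of 19 called by edgeR, 1 lower by DESeq2 and 2 by limma voom, and 7 lower at an unadjusted p under 0.05 (7.04% of all genes), with 18 below 0 (55.7% of all genes) and a median of -0.80, and the control median was -1.22 with limits. Hes1, the Notch effector, was at 361, 377 and 541 CPM at 2 days and at 23.3, 288 and 38.7 CPM at 8 days, and the no-color cells had 34.9, 282 and 37.5 CPM, so replicate 2 stood apart in both. The interferon-stimulated genes had 0 of 25 called by edgeR, 7 lower by DESeq2 and 6 by limma voom (of 368 and 947 over all genes), and 14 lower at an unadjusted p under 0.05 (7.04% of all genes), with a median of -1.11 as fitted and -1.30 with limits, beside -0.98 and -0.64 in the controls. The 13 genes of the mitochondrial genome had 0 called by edgeR and 6 lower at an unadjusted p under 0.05 (7.04% of all genes), with 1 lower by DESeq2 and 1 higher and 2 lower by limma voom, and a median of -1.19, beside -1.01 in the controls. Their summed level was 27700 to 28840 CPM at 2 days. At 8 days it ran from 18300 to 36980 CPM, both below and above that range.

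The duct list held more genes lowered than raised at both times. Of 21 ductal keratins and surface markers 7 were lower and 1 higher at 2 days than in GFP only (1.22% and 2.29% of all genes), and 5 were lower and 0 higher (edgeR) at 8 days than in the no-color cells (0.706% and 1.47% of all genes). Between the days 0 were called by edgeR, with 6 higher and 2 lower at an unadjusted p under 0.05 (4.82% and 7.04% of all genes). By DESeq2 and by limma voom 6 were higher (of 328 and 519 over all genes). Krt19, a keratin that defines duct epithelium, was at 82.2, 108 and 131 CPM at 2 days and at 225, 247 and 223 CPM at 8 days, without overlap, but its change of 1.11 ± 0.276 did not pass (adjusted p = 0.0743, edgeR). It stayed below the 589 to 666 CPM of GFP only and the 605 to 1036 CPM of the no-color cells. Of 22 pan-neuronal genes 8 were raised at 2 days and 7 at 8 days, and of 24 genes of the exocytosis machinery 6 were raised at each time, beside 2.29% and 1.47% of all genes. Between the days 0 of either list were called by edgeR, while 4 and 5 were lower and 0 higher at an unadjusted p under 0.05 (7.04% and 4.82% of all genes). By DESeq2 1 of each list was lower, and by limma voom 4 and 3 (of 368 and 947 over all genes). Tubb3, the neuronal beta-tubulin, was at 123, 123 and 146 CPM at 2 days and at 63.2, 25.5 and 29.9 CPM at 8 days (-1.72 ± 0.690, adjusted p = 0.334, edgeR), with at most 5.78 CPM in the no-color cells.

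**Figure D4:**
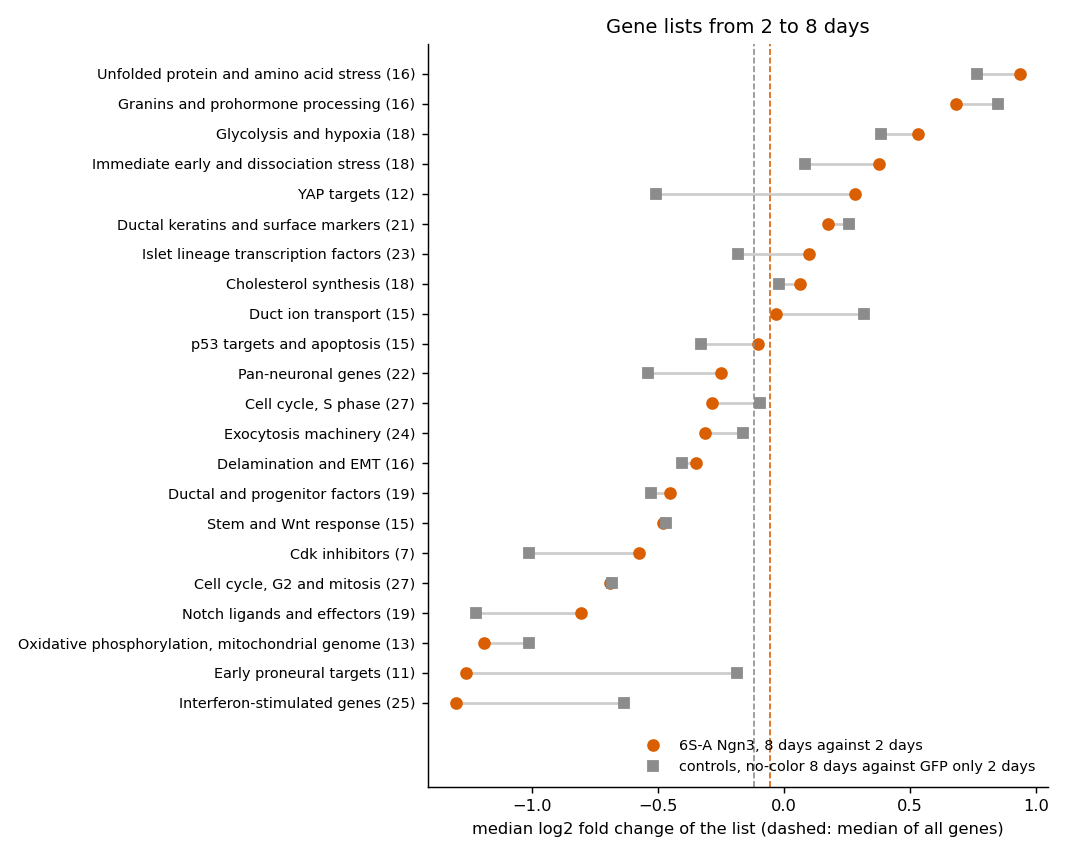
Median log2 change from 2 to 8 days of 22 gene lists (number of genes in brackets) with 6S-A Ngn3 (orange circles) and in controls (grey squares, no-color cells of 8 days against GFP only of 2 days), with genes without reads set to their limits, and the median of all genes dashed. The early proneural targets had a median of -1.26 with 6S-A Ngn3 and -0.19 in the controls, the amino acid stress list 0.94 and 0.77, and the mitochondrial genome -1.19 and -1.01.

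A further set of genes was taken from another comparison, those that WT Ngn3 raised or lowered against GFP only at 2 days. No 6S-A library is part of that comparison, but the joint fit over all groups shares its estimate of the spread with them. WT Ngn3 raised 350 genes (1.4% of those tested) by at least 1 on the log2 scale and lowered 80 (0.321%). Of the 350 raised, 24 fell with 6S-A Ngn3 between 2 and 8 days (6.86%, beside 0.2% of all genes tested) and 0 rose, by the edgeR test above, with 157 lower and 4 higher at an unadjusted p under 0.05 (7.04% and 4.82% of all genes). DESeq2 called 89 lower and 1 higher (of 368 and 328 over all genes), and limma voom 129 and 2 (of 947 and 519). Of the 350 genes 308 were below 0, with a median of -1.09 and quartiles of -1.72 and -0.51. In the controls the median was -0.23 as fitted and -0.36 with limits. Even so 201 of the 350 were called above the no-color cells at 8 days (1.47% of all genes). The mean log2(CPM + 0.5) over the 350 genes was 5.07, 4.83 and 5.19 in the replicates of 2 days and 4.25, 3.90 and 3.37 in those of 8 days. It was 1.69 to 1.70 in GFP only and 1.32 to 1.64 in the no-color cells, so the 8-day replicates lay between both levels without overlap. The calls shared the limits given above, and without replicate 1 of 6S-A Ngn3 at 2 days only Mtch1 fell among all genes.

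Of the 80 genes lowered by WT Ngn3, 26 rose with 6S-A Ngn3 between the days (32.5%, beside 0.233% of all genes) and 0 fell by edgeR, with 65 higher and 0 lower at an unadjusted p under 0.05 (4.82% and 7.04% of all genes). DESeq2 called 49 higher and limma voom 52 (of 328 and 519 over all genes), and 0 fell by either. Of the 80 genes 79 were above 0, with a median of 1.21. The control median was 0.43, and 44 of the 80 were still called below the no-color cells at 8 days (0.706% of all genes). The mean log2(CPM + 0.5) was 4.39, 5.03 and 4.79 at 2 days and 6.16, 6.20 and 5.72 at 8 days, against 6.99 to 7.09 in GFP only and 7.34 to 7.57 in the no-color cells. The GFP-only libraries took part in the choice of both sets of genes, so the distance to the control at 2 days is not independent of that choice. Samples of 1 number within 2 days also deviated together, so the 2-day level of 6S-A Ngn3 was not fully independent of it either. The same genes moved with WT Ngn3, with medians of -1.17 and 0.84, values that share the 2-day libraries used to choose the genes. Between the days 8 genes rose (0.0321%) and 21 fell (0.0842%) with WT Ngn3, and all 8 of the first and 16 of the second also did so with 6S-A Ngn3.

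**Figure D5:**
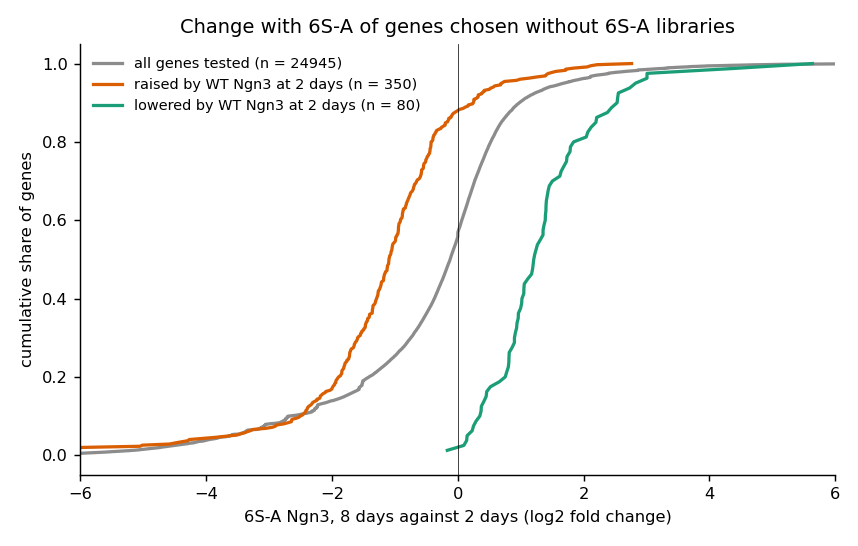
Cumulative share of genes (y axis) by the log2 fold change of 6S-A Ngn3 at 8 days against 2 days (x axis) for all 24945 genes tested (grey), the 350 raised by WT Ngn3 at 2 days (orange) and the 80 lowered (green). The orange curve lies to the left of the grey over most of its course, with a median of -1.09, and the green to the right, with a median of 1.21.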

How the data were processed

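RNA-seq libraries of sorted pools were made with Smart-seq2 and Nextera XT. The authors aligned reads to mm10 with GSNAP and counted them per gene of Ensembl 81 with HTSeq 0.5.3p3, and deposited the counts of 46078 genes and 92 spike-ins without normalization. Lines for reads not aligned (22.5%), without feature (14.4%) or ambiguous (8.06%) were left out of library sizes and tests.

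The limits of the study (at least 10000 genes and 1000000 reads on genes, and at most 30% of reads on spike-ins) kept 76 of the 77 libraries. The paper reports that more than 1 sample was left out by its limits, so the libraries used may differ from those of the paper. Counts of repeat pools were summed per replicate, and the 24945 genes detected in at least 5 libraries were fitted over all 7 groups with edgeR 4.0.16 (TMM, robust quasi-likelihood, Benjamini-Hochberg, threshold 0.05) in R 4.3.3. Alternatives used DESeq2 1.42.0 and limma 3.58.1 (voom with sample weights), and tables and figures were made in Python 3.11.15. The tests were tried on simulated data with known changes. A floor of 3 reads, summed over a group, was used for bounds, and intervals of such bounds cover counting error only. Medians with limits set genes without reads in 1 group to that floor and leave out genes at or below it in both.

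Genes named were Neurog3 and the genes the study names for the organoids, up to 4 called and 3 highest uncalled members per list, and up to 8 largest non-overlapping changes of at least 10 CPM per class and direction. Bhlhe22, Kntc1, Pclaf, Anxa3, Iapp, Resp18, Gcg, Krt19, Bhlhe41, Gpc1 and the rebounded genes and glutathione transferases given by name only were chosen after their values were seen. The members and lists were chosen with earlier results of these data known. The labels give every group the numbers 1 to 3. Deviations from group means of same-numbered samples correlated at 0.0393 to 0.14 between 6S-A Ngn3 of 8 and 2 days, and at 0.276 to 0.441 and 0.387 to 0.648 between 6S-A Ngn3 and its control within 2 and within 8 days, so numbers were taken to pair samples within a day and not between days. Gene coordinates are of GRCm38, and promoter sequences are RefSeq entries of GRCm38.p6.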

Additional observations from a re-analysis of the deposited data

Results flagged for a closer look

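Of 25 genes checked over the 6 single pools of 6S-A Ngn3 at 8 days, 3 had 1 pool far above the rest by Dixon's criterion (critical value 0.625), which chance passes in about 1 in 20 groups. Lzts1 was at 71.77 CPM in 1 pool of replicate 1 and at 19.77 CPM in the next highest, a gap of 0.798 of the range. Pyy, the peptide YY gene, was at 189.5 CPM in 1 pool and at 56.59 CPM in the next, a gap of 0.702 of the range. Tph1, the enzyme that starts serotonin synthesis, was read in 1 pool only, at 1.004 CPM from 4 reads.

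The late response of Fads3 differed from its early response by 2.81 on the log2 scale (SE 0.424, adjusted p = 0.0197 by the edgeR test of the difference), the 1 gene of 24945 that passed. It was lower than GFP only at 2 days and higher than the no-color cells at 8 days.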

How the results depend on the processing

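The direction of the 108 genes called between 8 and 2 days was the same in every alternative, but the counts were not. Genes called higher and lower numbered 328 and 368 with DESeq2, 519 and 947 with limma voom, 0 and 2 on the 6S-A Ngn3 replicates alone, 13 and 3 with the first technical repeat only, and 100 and 94 without the libraries of passage 5. Scaling by library size gave 38 higher, and shifted the median of all genes from -0.12 to -0.20. Early rises and falls numbered 892 and 599 with DESeq2, 2559 and 2138 with voom, 190 and 166 with the first repeat and 939 and 673 without passage 5. Late rises and falls numbered 834 and 561 with DESeq2, 150 and 92 with the first repeat and 877 and 329 against both no-color groups, and late falls 111 by library size and 274 with voom. Control rises and falls numbered 27 and 152 by library size, 467 and 534 with DESeq2, 770 and 1044 with voom and 3 and 15 with the first repeat, and rises 100 without passage 5. The late minus early difference gave 3 calls with DESeq2 size factors, the edgeR filter, the first repeat or both no-color groups, 69 with DESeq2, 49 with voom, 7 after thinning and 4 without passage 5, and 6S-A minus WT gave 4 with DESeq2. The cause of these shifts was not tested.

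Faded genes numbered 124 with DESeq2, 349 with voom, 2 with the first repeat, 45 after thinning and 42 without passage 5. Kept rises numbered 359 with DESeq2 and 87 with the first repeat, and kept falls 48 by library size, 137 with DESeq2 and 34 with the first repeat. Rebounded genes numbered 25 by library size, 104 with DESeq2, 149 with voom, 8 with the first repeat and 75 without passage 5. Late rises numbered 0 by library size, with the first repeat and without passage 5, 6 with DESeq2 and 11 with voom. Late falls as a class numbered 31 with DESeq2, 29 with voom, 1 with the first repeat or after thinning and 6 against both no-color groups. The passage and within-day alternatives were chosen after seeing the data.

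Leaving out 1 replicate at a time gave 0 to 71 rises and 1 to 80 falls between the days, 289 to 686 and 128 to 423 early, 183 to 412 and 90 to 275 late, 0 to 90 and 9 to 140 in controls, 0 to 6 for late minus early and 0 for 6S-A minus WT. The classes held 1 to 33 faded, 142 to 294 kept and 0 to 5 late rises, and 0 to 45 rebounded, 49 to 101 kept and 0 to 18 late falls. A group left with 2 samples shares the spread of the others.

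With the replicate number as a block over both days, 103 genes were called higher and 129 lower, 80 and 203 in controls, 4 for late minus early, and 55 faded. As a block within each day, 580 early falls, 639 late rises, 485 late falls and 11 differences were called. The classes and the changes between the days were not counted under the block within each day. Since numbers did not pair samples between the days, the first block was not used. No other call counted moved by over 1.5 times.

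Rfx6 (-0.11) changed sign, to 0.24 with the first repeat, 0.13 without passage 5, 0.06 without replicate 2 and 0.21 without replicate 3 of 8 days, where it was -0.74 without replicate 1. Neurog3 passed in 29 of 30 alternatives, Mtch1 in 29, Gal in 28, Lzts1 in 27, Insm1 and Hes6 in 22, Inhba in 17, Gpr153 in 15, Miat in 14, and Fads3, Btbd17 and Slc7a11 in 13. Depth limits genes of a few CPM at 8 days, where 3 reads were worth up to 0.439 CPM in a replicate.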
